A study of Homo sapiens with 3 samples.

Results

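Lysosomes are acidic organelles that macrophages use to digest what they take up, and they are also where the endosomal toll-like receptors (TLR) meet their nucleic acid ligands. Acid is made by the vacuolar ATPase (V-ATPase), a rotary proton pump whose V1 sector hydrolyses ATP in the cytosol and whose V0 sector carries protons through the membrane. Inside the lumen, cathepsins and other hydrolases cut proteins, sugars, and lipids, and cathepsins also process TLR7 and TLR9 into their signaling forms. TFEB and TFE3 are transcription factors that bind the CLEAR element of many lysosomal promoters. The transcripts of this machinery were taken from arrays of THP-1 macrophages as every gene whose name begins with ATP6V together with 32 genes listed by name. This gave 55 genes of the 41810 gene names on the array, of which 23 carried an ATP6V name. They were 21 V-ATPase subunits and 2 antisense transcripts from subunit loci.

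THP-1 cells derive from a human monocytic leukemia, and those of all 3 arrays had been made macrophage-like with the phorbol ester PMA at 100 ng/ml for 24 to 36 h. The first array held RNA of macrophages with no further treatment (Ctrl), the second of macrophages given imiquimod (IMQ), a synthetic TLR7 ligand, and the third of macrophages labelled IMQ+X. The treatment protocol of the labels names DMD, a dimethoxy-methylbenzenediol given before IMQ, as the other compound, so X was read as DMD. The labels give 4 h for each array and no dose of IMQ or DMD, and the general methods of the study describe a longer exposure. One array was hybridised per condition, so no difference below has a replicate check and none has a p-value. As the cells come from 1 line and RNA was measured in bulk, fewer cells of a kind and less RNA per cell cannot be told apart.

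The values are log2 of the quantile-normalized fluorescence intensity of a probe, so a difference of 1 is a 2-fold change. The brightest probe stood for each gene, and because each probe has its own brightness per molecule, levels of different genes are not read as amounts of RNA. Of the members, 53 were well above background on all 3 arrays, ATP6V0A4 on 2 arrays, and the kidney subunit ATP6V1G3 on none (0 of 3). The probes of the members that could be compared had a median log2 intensity of 13.16 on the Ctrl array, beside 7.39 for the probes of all genes compared, which bears on their scatter and not on the amount of RNA. The scatter of 300 probes printed 10 times on each array gave a technical SD for every difference. It had a median of 0.07 over the members for IMQ against Ctrl and 0.06 for IMQ+X against IMQ. This SD covers noise within an array and not the spread between cultures.

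The macrophage label was checked with markers. All 6 of the monocyte and macrophage markers read (CD14, CSF1R, ITGAM, SPI1, CD33, and FCGR1A) were well above background on every array, with CSF1R at 17.76 on the Ctrl array. The scanner's mark was a permissive one, held by 66.6 to 72.0% of all probes. It was also met by 3 of 3 T cell and 3 of 3 B cell markers on every array, with CD79A as bright as 12.04. Of 3 epithelial markers, EPCAM was not well above background on any array, KRT5 was on 2 arrays, and KRT14 on all 3. Of 3 fibroblast markers, COL1A2 was not on any array, and COL1A1 and PDGFRB were on all 3. Of 3 markers of osteoclasts, a cell type rich in V-ATPase and CTSK, CALCR was not on any array and the other two were on all 3. DCSTAMP read 9.92, 11.20, and 11.48 on the Ctrl, IMQ, and IMQ+X arrays, and OSCAR read 12.04 on the Ctrl array and differed by -0.11 after IMQ. CD14 was lower by 0.73 on the IMQ array and CD33 by 0.84, whereas SPI1 differed by 0.02. The part of these markers' cell types in the differences of lysosomal transcripts was not tested.

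Probes inside coding sequence are shown for 7 members whose differences are described below, so that it is clear which piece of each transcript was read. Each holds at least 1 reading frame without a stop codon, and its place in coding sequence was taken from the known protein, as no annotation of hg19 was used here. Each is 60 bases long in the sense direction, and positions refer to hg19. GLA, at chrX:100652878-100652937 on the minus strand, CTSL, at chr9:90345326-90345385 on the plus strand, and NPC1, at chr18:21112218-21113347 on the minus strand, were higher on the IMQ array. ATP6V1E1, at chr22:18080994-18081053 on the minus strand, was a V1 stalk subunit with a smaller difference. CTSC, at chr11:88033771-88042347 on the minus strand, and UNC93B1, at chr11:67761167-67761226 on the minus strand, were lower on the IMQ array. MCOLN1, at chr19:7593764-7593823 on the plus strand, was lower on the IMQ+X array. The NPC1 and CTSC probes span 1130 and 8577 bases of the genome, so they cross an intron and read spliced RNA. For CTSC and UNC93B1 the sequence shown is that of a second probe of the gene.
GLA: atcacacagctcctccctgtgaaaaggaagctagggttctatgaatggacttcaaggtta
CTSL: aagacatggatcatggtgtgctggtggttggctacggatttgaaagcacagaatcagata
NPC1: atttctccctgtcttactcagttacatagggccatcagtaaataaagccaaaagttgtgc
ATP6V1E1: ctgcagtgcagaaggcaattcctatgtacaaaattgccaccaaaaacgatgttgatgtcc
CTSC: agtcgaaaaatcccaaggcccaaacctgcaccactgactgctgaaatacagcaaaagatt
UNC93B1: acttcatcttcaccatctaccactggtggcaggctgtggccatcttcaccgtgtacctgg
MCOLN1: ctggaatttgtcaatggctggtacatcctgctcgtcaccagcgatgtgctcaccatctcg

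The first question was how the lysosomal transcripts stood after IMQ. Of the 54 members compared, 10 (18.5%) were at least 1.5-fold higher on the IMQ array than on the Ctrl array, beside 10.7% of all genes read by the same rule. The 10 include ATP6V1B1 and ATP6V0A4, whose probes lay close to the lowest readable level. Another 4 (7.41%) were at least 1.5-fold lower, beside 10.8% of all genes. With spike-in scaling the counts were 5 higher (9.26%, beside 4.3% of all genes) and 6 lower (11.1%, beside 32.2%). With no normalization they were 2 higher (3.7%, beside 3.37%) and 7 lower (13%, beside 43.3%). At 2-fold, 0 members were higher and 2 were lower, beside 4.23% and 3.67% of all genes. The median difference of the members was 0.13 and that of all genes was -0.02. On this scale 36 members lay above 0 and 18 below, beside 14714 above and 16160 below for all genes. The members' median turned to -0.09 when the arrays were scaled to spike-in probes and to -0.22 with no normalization. The median of all genes moved to -0.38 and -0.51 in those settings, so that the members lay 0.12 to 0.30 above all genes in every setting tried. The members' probes were brighter than those of most genes they are set beside, and the part of brightness in these shares was not tested.

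**Figure D1:**
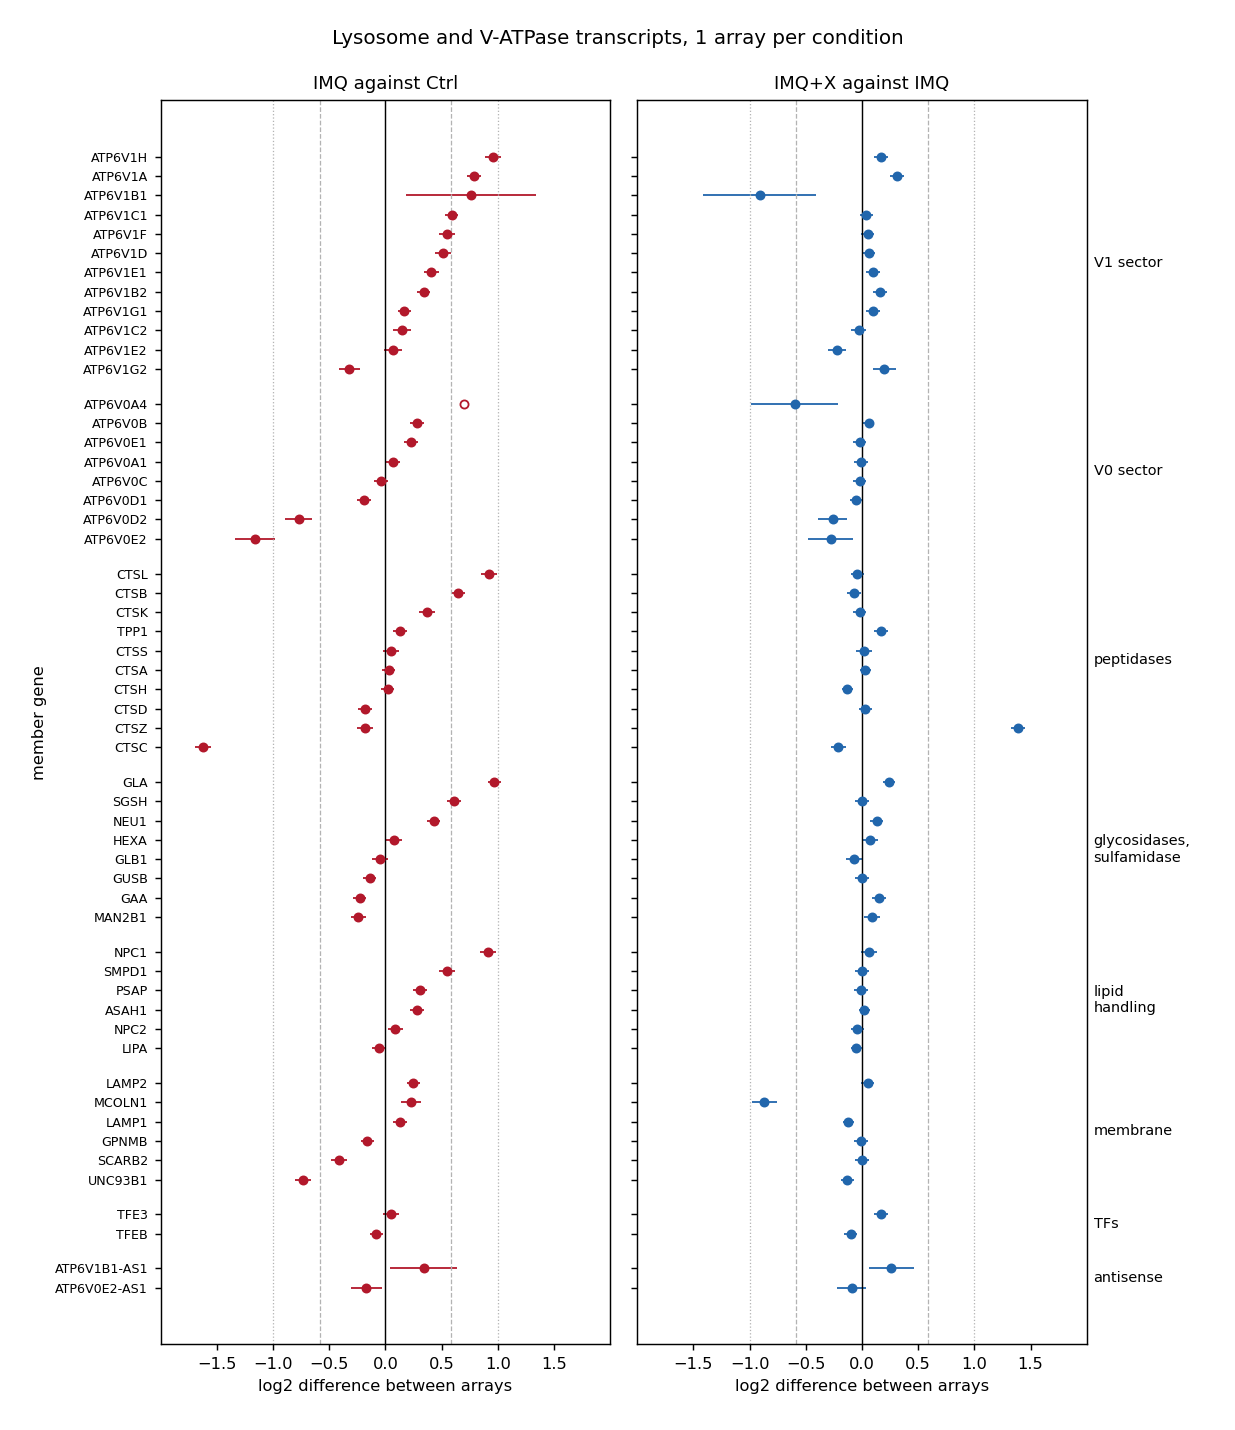
Log2 difference of each member for IMQ against Ctrl (left) and IMQ+X against IMQ (right), ordered within roles, with 1 array per condition. Bars are the technical SD from repeated spots, dashed lines mark 1.5-fold and dotted lines 2-fold. The open point (ATP6V0A4) has no bar and is measured from the lowest readable level of the Ctrl array. Under quantile normalization, 10 members on the left lie past 1.5-fold on the high side and 4 on the low side. On the right 48 of 54 members lie within 1.2-fold.

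Most of the V1 sector lay on the high side. Of its 12 subunits compared, 11 were above 0 on the IMQ array, with a median of 0.46. Of all 30874 genes compared, 14714 were above 0. At least 1.5-fold higher were 4 of the 12 (33.3%), beside 10.7% of all genes. The 4 include ATP6V1B1, whose probe lay close to the lowest readable level. The median of the sector remained above 0 in all settings, at 0.20 with spike-in scaling and 0.07 without normalization, where the median of all genes was below it. ATP6V1H, a regulatory subunit that couples ATP hydrolysis to pumping, read 10.32 on the Ctrl, 11.28 on the IMQ, and 11.45 on the IMQ+X array. That was a 1.94-fold higher level after IMQ (log2 difference 0.96, technical SD 0.07). ATP6V1A, the catalytic subunit, read 13.07, 13.85, and 14.16 in the same order and was 1.72-fold higher after IMQ (0.79, technical SD 0.06). Both were lowest on the Ctrl array and highest on the IMQ+X array under quantile normalization. For ATP6V1H the difference between IMQ+X and IMQ ran from -0.02 to 0.17 over the settings.

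The other V1 subunits of most cells differed less. ATP6V1C1, a C subunit, was 1.51-fold higher by the probe that stands for it (0.59) and higher by 0.74 by its second probe. The rotor subunits ATP6V1F and ATP6V1D were higher by 0.55 and 0.51, just under 1.5-fold. The stalk subunits ATP6V1E1 and ATP6V1G1 were higher by 0.41 and 0.17, and ATP6V1B2, the B subunit of macrophages, by 0.34. Each of these differences was larger than 2 times its technical SD, which covers neither the spread between cultures nor the choice of normalization. A difference as small as the 0.17 of ATP6V1G1 says little about the gene.

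Isoforms known from other tissues behaved less clearly. ATP6V1B1, the B subunit of kidney and inner ear, read 4.70, 5.46, and 4.55 on the Ctrl, IMQ, and IMQ+X arrays. It counted among the members 1.5-fold higher after IMQ (0.76), but its technical SD was 0.58 because the probe lay close to the lowest readable level. ATP6V1G2, the neuronal G subunit, was the lowest of the sector at -0.32. ATP6V1C2 and ATP6V1E2 differed by 0.15 and 0.07.

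The V0 sector showed no common direction, with a median of 0.01 and 4 of 8 subunits on each side of 0. The subunits of most cells were close to the Ctrl array. ATP6V0C, the proteolipid that forms the proton-carrying ring, differed by -0.04, ATP6V0A1 by 0.07, ATP6V0D1 by -0.19, ATP6V0E1 by 0.23, and the second ring protein ATP6V0B by 0.28. In contrast, 2 subunits (25%) were lower past 1.5-fold, beside 10.8% of all genes. ATP6V0E2, an alternative form of the small e subunit, read 7.56, 6.40, and 6.12 and was 2.23-fold lower after IMQ (-1.16, technical SD 0.18). ATP6V0D2, the d subunit known from osteoclasts and macrophages, read 8.65, 7.88, and 7.62 and was 1.7-fold lower (-0.77, technical SD 0.12). Both had their lowest level on the IMQ+X array under quantile normalization. For ATP6V0E2 the difference between IMQ+X and IMQ ran from -0.28 to 0.02 over the settings.

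ATP6V0A4, the kidney form of subunit a, was not well above background on the Ctrl array, where it measured 3.21. It read 4.74 on the IMQ array, 1.62-fold above the lowest readable level of the Ctrl array (4.04). The lowest readable level of the IMQ array itself was 4.57. Over the settings its difference after IMQ ran from 0.02 to 1.54, so 1.62-fold is not a firm lower limit. The value at background on 1 side and a technical SD of 0.54 leave its size unknown. The antisense transcripts ATP6V1B1-AS1 and ATP6V0E2-AS1 differed by 0.34 and -0.17 after IMQ. No probe named ATP6V0A2 was analysed here.

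**Figure D2:**
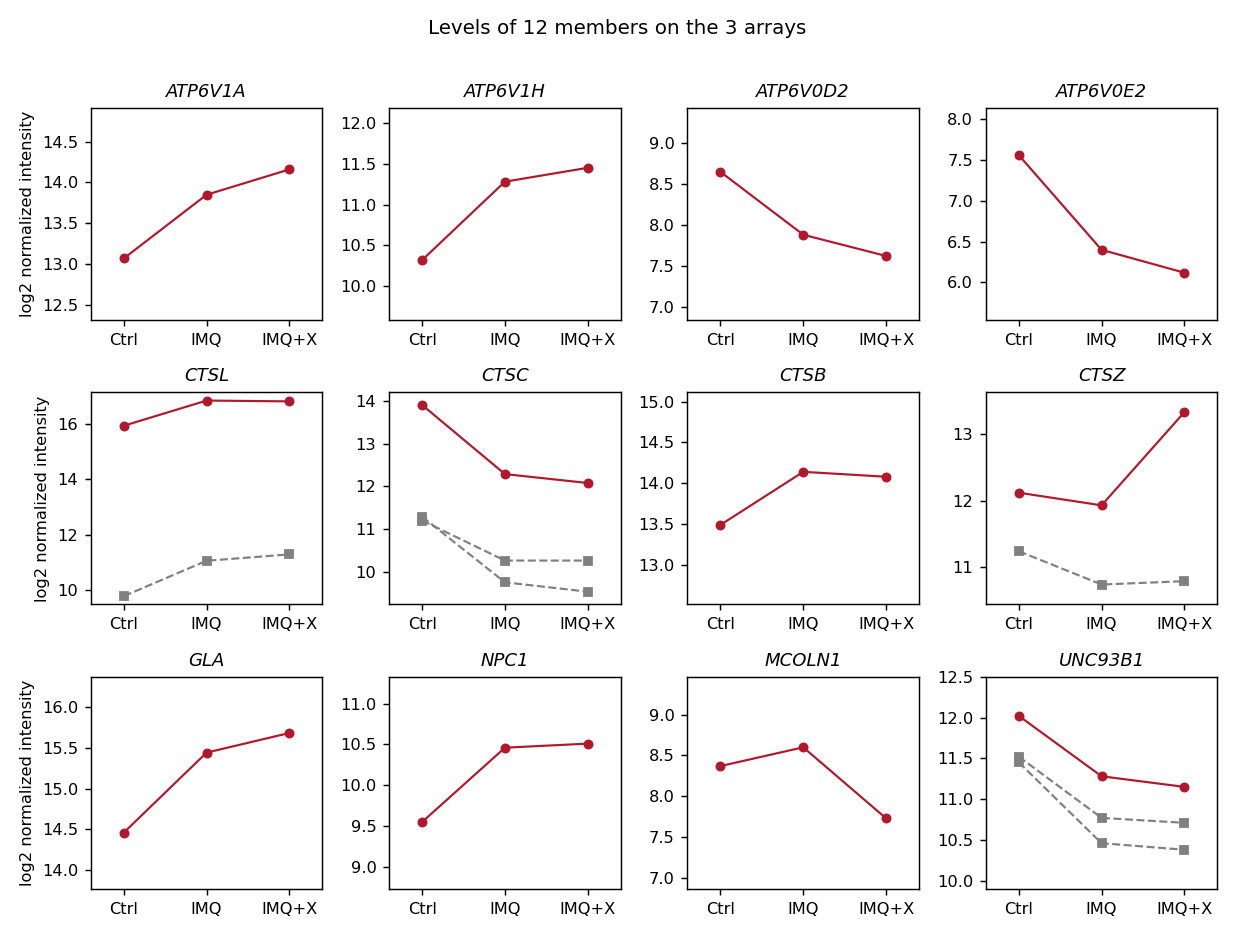
Log2 normalized intensity of 12 members on the Ctrl, IMQ, and IMQ+X arrays. The red line is the probe that stands for the gene and gray dashed lines are its other probes. ATP6V1A, ATP6V1H, CTSL, CTSB, GLA, and NPC1 are higher on the IMQ array than on the Ctrl array, ATP6V0D2, ATP6V0E2, CTSC, and UNC93B1 are lower, and the probes of CTSZ part on the IMQ+X array.

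Among the 10 peptidases the median was 0.04, and the members spread widely around it. CTSL and CTSB, cysteine proteases that cut inside protein chains, were the 2 (20%) that were at least 1.5-fold higher, beside 10.7% of all genes. CTSL read 15.94 on the Ctrl, 16.85 on the IMQ, and 16.82 on the IMQ+X array, 1.89-fold higher after IMQ (0.92, technical SD 0.07), and its second probe gave 1.29. CTSB read 13.49, 14.14, and 14.08 and was 1.57-fold higher (0.65, technical SD 0.06). By these probes both stood at nearly the same level on the IMQ and the IMQ+X array under quantile normalization. The second probe of CTSL was higher by 0.23 on the IMQ+X array.

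CTSC is the dipeptidyl peptidase that activates serine proteases of granules. Among the probes that stand for members, its probe had the largest difference in either direction. It read 13.91 on the Ctrl, 12.29 on the IMQ, and 12.08 on the IMQ+X array, 3.07-fold lower after IMQ (-1.62, technical SD 0.07). Its other probes gave -1.54 and -0.94, the latter being the probe across the intron printed above. All 3 probes placed CTSC lower on the IMQ array, by different amounts. They are listed for different transcripts, and by the probe across the intron CTSC was 1.92-fold lower, short of 2-fold. By that probe its difference was smaller in size than that of ATP6V0E2 (-1.16).

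The remaining peptidases stayed within 1.5-fold after IMQ. CTSD, the main aspartic protease of lysosomes, differed by -0.18, and CTSS, which trims the invariant chain of MHC class II, by 0.05. CTSK, a collagen-degrading protease, was higher by 0.37, TPP1 by 0.13, CTSA by 0.03, and CTSH by 0.02. CTSZ, a carboxypeptidase, differed by -0.18.

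Of 8 enzymes that act on sugar chains, 2 (25%) were at least 1.5-fold higher after IMQ, beside 10.7% of all genes. None of the 8 (0) was lower by as much, beside 10.8%, and the median was 0.01. GLA, the alpha-galactosidase deficient in Fabry disease, read 14.46, 15.44, and 15.68 on the Ctrl, IMQ, and IMQ+X arrays. Its 1.97-fold higher level after IMQ (0.97, technical SD 0.06) was the highest among members measured on both arrays, by the probes that stand for them. SGSH, which removes sulfate from heparan sulfate, was 1.52-fold higher (0.61), and the sialidase NEU1 was higher by 0.43. The other 5 lay between -0.24 for the mannosidase MAN2B1 and 0.08 for the hexosaminidase subunit HEXA, with GLB1 at -0.05, GUSB at -0.14, and the glycogen-degrading GAA at -0.23.

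The 6 genes of lipid handling had a median of 0.29, and 5 of them were above 0. NPC1, the membrane protein that exports cholesterol from lysosomes, read 9.55, 10.46, and 10.51 and was 1.88-fold higher after IMQ (0.91, technical SD 0.07). NPC2, its soluble partner, differed by 0.09. The acid sphingomyelinase SMPD1 was higher by 0.55, just under 1.5-fold, the saposin precursor PSAP by 0.31, and the acid ceramidase ASAH1 by 0.28. The lipase LIPA differed by -0.06.

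Lysosomal membrane proteins did not move in 1 direction, with a median of -0.02 over 6. UNC93B1, which carries the endosomal TLRs from the endoplasmic reticulum, read 12.02, 11.28, and 11.15. It was 1.66-fold lower after IMQ (-0.73, technical SD 0.07), and its other probes gave -0.75 and -1.0. LAMP1 and LAMP2, the abundant membrane glycoproteins, differed by 0.13 and 0.25, and the other probes of LAMP2 gave 0.30 and 0.08. SCARB2, the receptor that carries glucocerebrosidase to lysosomes, differed by -0.41, GPNMB by -0.16, and the calcium channel MCOLN1 by 0.23.

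Neither transcription factor reached 1.5-fold. TFEB read 13.35, 13.27, and 13.17 on the Ctrl, IMQ, and IMQ+X arrays, a difference of -0.08 after IMQ, but its second probe gave 0.30, so its direction depends on the probe. TFE3 read 11.54, 11.59, and 11.76, a difference of 0.05 by 1 probe and -0.06 by the other. Their activity is governed largely by where the protein sits in the cell, which arrays do not measure.

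The second question was what the compound labelled X did to these transcripts beside IMQ. Of the 54 members compared, 48 (88.9%) lay within 1.2-fold between the IMQ+X and the IMQ array under quantile normalization, beside 62.6% of all genes. With scaling to the 75th percentile, named members that left this range included CTSB (-0.28), LAMP1 (-0.29), TFEB (-0.30), UNC93B1 (-0.31), and CTSC (-0.39). ATP6V0A4 (-0.22), ATP6V0E2 (-0.04), and ATP6V1A (0.07) entered it. The members' probes are brighter than those of most genes and bright probes scatter less, and the part of brightness in this gap was not tested. The median was 0.00, and 27 members lay on each side of 0. It was -0.15 with scaling to the 75th percentile or to spike-in probes, where the median of all genes stayed at -0.00 and 0.01.

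Only CTSZ, 1 member (1.85%), was at least 1.5-fold higher on the IMQ+X array than on the IMQ array, beside 6.71% of all genes. At 2-fold it was still 1 member, beside 1.2% of all genes. Another 3 members (5.56%) were at least 1.5-fold lower, beside 5.41%, and 0 at least 2-fold lower, beside 1.24%. A single gene makes up 1.85% of the members, so the share at 2-fold is that of CTSZ alone, and the share lower with X was close to that of all genes.

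CTSZ read 12.12 on the Ctrl, 11.93 on the IMQ, and 13.33 on the IMQ+X array, 2.62-fold higher with X (1.39, technical SD 0.06). Its second probe read 11.24, 10.74, and 10.79 and differed by 0.05. The probes are listed for different transcripts, and with the mean of both the difference was 0.72. Only the brighter probe therefore set the IMQ+X array apart. The pixels of its spot on the IMQ+X array varied by 9.15% of their mean (44.7th percentile among spots of like brightness). The second probe's spot varied by 19.7, 20.2, and 20.4% on the Ctrl, IMQ, and IMQ+X arrays (96.8th, 97.6th, and 98.7th percentile). The part of the spots in the gap between the probes was not tested.

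MCOLN1, the channel that releases calcium from lysosomes and is itself a target of TFEB, read 8.37, 8.60, and 7.73. It was 1.83-fold lower on the IMQ+X array than on the IMQ array (-0.87, technical SD 0.11) and had its lowest level there. The difference lay between -0.67 and -0.87 in all settings, and it rests on 1 probe. The other members lower with X were ATP6V1B1, which returned from 5.46 to 4.55 (-0.91, technical SD 0.50), and ATP6V0A4, from 4.74 to 4.15 (-0.60, technical SD 0.39). Both probes lay near the lowest readable level, which was 4.57 for IMQ and 4.08 for IMQ+X. Neither ATP6V1B1 nor ATP6V0A4 reached 1.5-fold when the arrays were scaled to the 75th percentile, scaled to spike-in probes, left without normalization, or corrected with normexp.

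Of the 4 V1 subunits at least 1.5-fold higher after IMQ, ATP6V1B1 was lower with X, as given above, and ATP6V1C1 differed by 0.04. ATP6V1A was higher by a further 0.31 and ATP6V1H by 0.17, and the sector had a median of 0.08 under quantile normalization, -0.10 with scaling to the 75th percentile, and -0.09 with spike-in scaling. ATP6V1E2 differed by -0.22 and ATP6V1C2 by -0.03. In the V0 sector the range was from -0.60 for ATP6V0A4 to 0.06 for ATP6V0B. GLA was higher by 0.24 and NPC1 by 0.06, and CTSL and CTSB differed by -0.04 and -0.07. The second probe of CTSL gave 0.23. On the low side CTSC differed by a further -0.21 and UNC93B1 by -0.13, and the CTSC probe across the intron gave 0.00. CTSD, CTSS, LAMP2, and GPNMB lay within 0.05 of the IMQ array. A second, dim probe of GPNMB gave -0.65, and the other probes of LAMP2 gave -0.04 and -0.12. LAMP1 differed by -0.12, TFEB by -0.10, and TFE3 by 0.17. The second probe of TFEB gave 0.13 and that of TFE3 gave 0.15.

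**Figure D3:**
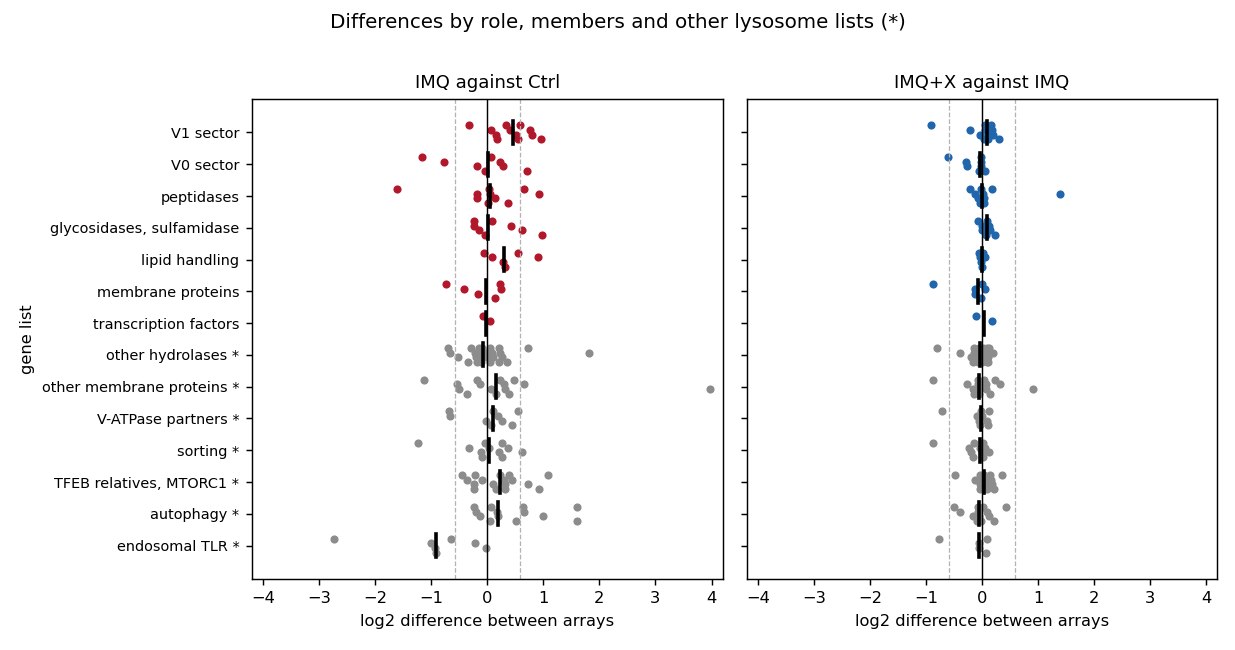
Log2 difference of each gene for IMQ against Ctrl (left) and IMQ+X against IMQ (right) by role. Colored points are members, gray points are genes of other lysosome lists (marked by an asterisk), black bars are medians, and dashed lines mark 1.5-fold. On the left the median of the V1 sector is 0.46 and that of the endosomal TLR list is -0.92, and on the right the list medians lie between -0.06 and 0.08.

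Set directly against the Ctrl array, the IMQ+X array had 11 members at least 1.5-fold higher (20.4%, beside 9.92% of all genes) and 5 at least 1.5-fold lower (9.26%, beside 11.5%). At 2-fold, 4 were higher (7.41%, beside 3.14%) and 3 lower (5.56%, beside 4.9%). The 4 were GLA at 2.32-fold, CTSZ at 2.31-fold, ATP6V1H at 2.19-fold, and ATP6V1A at 2.13-fold. CTSC was 3.55-fold, ATP6V0E2 2.71-fold, and ATP6V0D2 2.04-fold lower. With spike-in scaling or no normalization 0 members were at least 2-fold higher, and 4 were at least 2-fold lower, UNC93B1 being the added one. This comparison shares an array with each of the others and adds no separate evidence to them. For CTSZ the second probe gave -0.44, and for CTSC the probe across the intron gave -0.94.

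More than 1 probe read 15 of the members, which gave 19 pairs of the probe that stood for a gene and another of its probes. For IMQ against Ctrl the pairs differed by a median of 0.15, 14 of 19 had the same sign, and 1 pair, of CTSC, differed by over 0.5. For IMQ+X against IMQ the median gap was 0.14, 12 of 19 had the same sign, and the gaps over 0.5 were those of CTSZ and GPNMB. A gap of this size between probes of 1 gene was larger than the median technical SD, so a difference of 0.2 or less at a single probe says little about the gene.

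The wider lysosomal network was read from 7 further lists of genes that are not members, 98 genes in all with a probe. After IMQ, 13 of 98 (13.3%) were at least 1.5-fold higher and 11 (11.2%) at least 1.5-fold lower, close to the 10.7% and 10.8% of all genes, and the median was 0.06. The list of 7 TLRs and their chaperones was the only 1 of the 7 lists with a median below -0.1. All 7 of its genes lay below 0, 5 of them (71.4%) past 1.5-fold, with a median of -0.92. Of these, TLR3 and TLR8 were not well above background on the IMQ array, so their differences are limits. TLR7, the receptor of IMQ, read 9.24 on the Ctrl, 6.51 on the IMQ, and 5.75 on the IMQ+X array, and TLR4 read 11.12, 10.20, and 10.15. CNPY3, a chaperone of TLRs, differed by -0.65 and HSP90B1 by -0.03. UNC93B1, the member that carries endosomal TLRs, was also lower, as given above.

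Of 13 autophagy genes that TFEB is known to drive, 5 (38.5%) were at least 1.5-fold higher after IMQ, beside 10.7% of all genes. The cargo receptor SQSTM1 and GABARAPL1 were both higher by 1.60, WIPI1 by 0.99, MAP1LC3B by 0.66, and VPS18 by 0.63, and the median of the list was 0.19. Among 17 relatives and regulators of TFEB the median was 0.22. FNIP2 and FLCN, partners that act on MTORC1 at the lysosome, were higher by 1.08 and 0.72, the TFEB relative TFEC by 0.93, and MITF differed by -0.37.

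Of 26 other hydrolases and cofactors, 2 (7.69%) were at least 1.5-fold higher after IMQ and 2 (7.69%) lower, with a median of -0.07. Of all genes, 10.7% were higher and 10.8% lower. LGMN, the asparaginyl endopeptidase that takes part in TLR processing, read 6.04, 7.86, and 7.46 and was higher by 1.82. Among 15 other membrane proteins LAMP3, a glycoprotein of mature dendritic cells, read 6.84, 10.82, and 9.93 and was higher by 3.98, while the sialomucin CD164 differed by -1.13. Of 11 sorting proteins SORT1 differed by -1.24, and 0 of 9 V-ATPase partners were 1.5-fold higher and 2 (22.2%) were lower.

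On the IMQ+X array 1 of 96 genes of these lists (1.04%) was at least 1.5-fold higher than on the IMQ array, beside 6.71% of all genes, and 5 (5.21%) were at least 1.5-fold lower, beside 5.41%. The share lower was that of all genes, and the values are given as a description. The cystine exporter CTNS was higher by 0.91. LAMP3 and IGF2R, the mannose-6-phosphate receptor, differed by -0.88 each, ACP2 by -0.80, TLR7 by -0.76, and DMXL2 by -0.72.

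**Figure D4:**
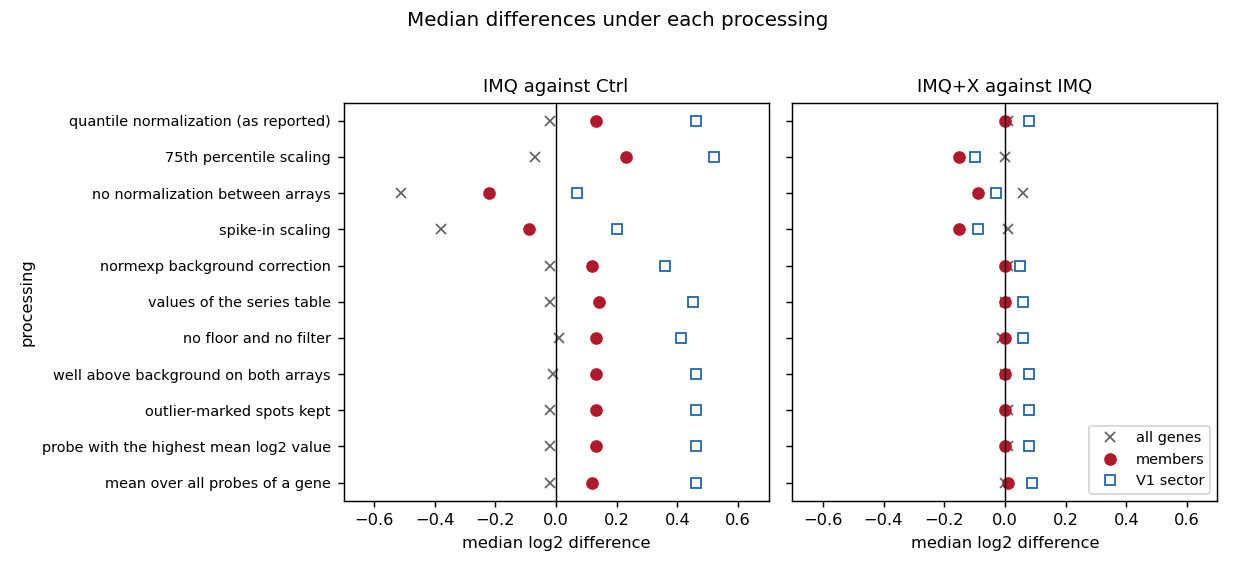
Median log2 difference of all genes (crosses), of the members (filled circles), and of the V1 sector (open squares) for IMQ against Ctrl (left) and IMQ+X against IMQ (right) under each processing. For IMQ against Ctrl the members lie to the right of all genes and the V1 sector to the right of the members in every row, and the sign of the members' median changes with spike-in scaling and without normalization.

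Promoters were searched for the palindrome TCACGTGA, the core of the CLEAR element, and for the E-box core CACGTG that lies within it. The window ran from 250 bases before to 50 bases after the start site in RefSeq (GRCh38.p14), and a palindrome reads the same on both strands. Of the 55 members, 39 had a listed promoter, and 6 of these (15.4%) held TCACGTGA, beside 1.18% of all 27305 genes with a promoter listed. CACGTG was held by 10 (25.6%), beside 8.77%. The CLEAR element is known from lysosomal promoters, so a higher share among the members is no separate finding. Counted per promoter, 0.98% of 35116 promoters held TCACGTGA. The 6 members were ATP6V1G1, ATP6V0D1, CTSA, GAA, LAMP1, and MCOLN1. LAMP1 (chr13:113297159-113297248), GAA (chr17:80101501-80101590), and MCOLN1 (chr19:7522544-7522633), all on the plus strand, held it 2 times each and are shown from 80 bases before to 10 bases after the start site, with TCACGTGA in capitals.
LAMP1: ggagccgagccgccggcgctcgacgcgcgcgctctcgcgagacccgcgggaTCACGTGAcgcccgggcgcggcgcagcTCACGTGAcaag
GAA: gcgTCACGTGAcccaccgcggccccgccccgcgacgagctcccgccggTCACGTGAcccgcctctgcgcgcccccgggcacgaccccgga
MCOLN1: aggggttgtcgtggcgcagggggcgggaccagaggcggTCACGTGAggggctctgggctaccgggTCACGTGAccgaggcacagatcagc

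The members with the palindrome stayed near the Ctrl array after IMQ. Their differences ran from -0.23 for GAA to 0.23 for MCOLN1 with a median of 0.08, and 0 of 6 reached 1.5-fold in either direction. The 32 members compared whose listed promoters lacked these letters ran from -1.62 to 0.97 with a median of 0.06, and 7 reached 1.5-fold. Of all genes 21.5% reached 1.5-fold in either direction, which is close to the share of the 32, and the 6 are too few to read a difference from. Between IMQ+X and IMQ, 1 of the 6 reached 1.5-fold, beside 3 of the 32 without these letters and 12.1% of all genes. That 1 was MCOLN1 at -0.87, and the other 5 lay between -0.12 for LAMP1 and 0.15 for GAA. A match is a description of letters and not a bound site, and its absence concerns this window only. ATP6V1A, ATP6V1H, CTSB, SGSH, ATP6V0D2, UNC93B1, ATP6V1B2, ATP6V1C1, ATP6V1E2, ATP6V0E1, ASAH1, CTSK, CTSS, HEXA, LAMP2, and PSAP had no entry in the promoter table.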

How the data were processed

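Total RNA of 3 THP-1 samples was labeled with Cy3 and hybridised to 1 one-color Agilent array each. The authors deposited the output of Feature Extraction 10.5.1.1 for each array, which gives background-corrected intensity per spot, and a table of raw and quantile-normalized intensity per probe. Here, control spots (1767 positive and 308 negative) and outlier-marked spots (52, 73, and 82 on the Ctrl, IMQ, and IMQ+X arrays, of which 0 read a member) were left out of the scanner intensity. Quantile normalization used limma 3.58.1 (R 4.3.3). The log2 values of a probe's spots were then averaged, which gave 58201 probes. No spot was saturated (0). The 75th percentile of intensity was 472, 346, and 361. The result differed from the deposited normalized table by a median of at most 0.0014 log2 units. Later steps used Python 3.11.15 with pandas 2.3.3, numpy 2.4.6, and matplotlib 3.10.9.

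Each gene was read by the probe with the highest mean normalized intensity in the deposited table. A dim probe was raised to the lowest level that was well above background on its array where it lay under it, and a gene was compared where the brighter array was well above background. A member counted as higher or lower at 1.5-fold or 2-fold. With 1 array per condition no test across genes was made, and precision is limited by the number of arrays. The normalization and the comparison rule were tested on simulated data. Values of the authors' enrichment analysis were not used.

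The members and lists were chosen with earlier results of these data known. Genes to be named were those at least 2-fold apart in any comparison, the highest and lowest of each role after IMQ and with X, and TFEB, TFE3, LAMP1, LAMP2, MCOLN1, CTSB, CTSD, CTSL, CTSS, UNC93B1, and GPNMB, with short values for the others. Genes named from the other lists, and single probes and spots, were chosen after their values were seen. Alternative settings were 75th percentile scaling, scaling to 10 spike-in probes, no normalization, normexp with an offset of 50, the deposited normalized values, no floor, probes well above background on both arrays, outlier-marked spots kept, the probe with the highest mean log2 value, the mean over probes, and 2-fold in place of 1.5-fold. Promoter sequences are those of RefSeq (GRCh38.p14), and probe sequences and positions those of the array design (hg19).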

Additional observations from a re-analysis of the deposited data

How the results depend on the processing

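The median difference of the members for IMQ against Ctrl was 0.13. It was 0.23 with scaling to the 75th percentile, -0.09 with spike-in scaling, and -0.22 with no normalization between arrays. For IMQ+X against IMQ the median of 0.00 became -0.15, -0.15, and -0.09 in the same order, and for IMQ+X against Ctrl 0.11 became -0.22 with spike-in scaling and -0.30 with no normalization. The cause was not tested. The 10 members at least 1.5-fold higher after IMQ became 5 with spike-in scaling, 2 with no normalization, and 0 at 2-fold, and the 4 lower became 7 with no normalization and 2 at 2-fold. The 3 members lower with X became 1 with scaling to the 75th percentile, spike-in scaling, no normalization, or normexp, and 0 at 2-fold. Role medians that changed sign included those of the V1 sector and the glycosidases for IMQ+X against IMQ, from 0.08 each. They became -0.10 and -0.10 with scaling to the 75th percentile, -0.09 and -0.09 with spike-in scaling, and -0.03 and -0.04 with no normalization. Medians near 0 also changed sign. For IMQ against Ctrl with no normalization, the peptidases went from 0.04 to -0.26 and the V0 sector from 0.01 to -0.23. The glycosidases went from 0.01 to -0.32 there. With scaling to the 75th percentile, the transcription factors went from 0.04 to -0.16 for IMQ+X against IMQ. For IMQ+X against Ctrl the peptidases went from 0.19 to -0.17 with spike-in scaling and -0.25 with no normalization, and the lipid genes from 0.30 to -0.02 and -0.10. Of 776 values of named members under the alternatives, 556 moved by less than the technical SD and 220 by more, and 0 of those past 1.5-fold changed sign. No paired analysis was possible because each condition has 1 array. Signal near background limits ATP6V1B1 and ATP6V0A4.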
